A study of Homo sapiens with 2 samples.

Results

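The nuclear genes of the mitochondrial respiratory chain were examined in 2 arrays of MCF-10A cells, a human mammary epithelial line that is established in culture and does not form tumours. The genes were chosen by a rule on symbols, among those whose annotated symbol matched a fixed pattern for nuclear subunits of complexes I to V. The pattern also takes in the ATP synthase inhibitor and a pseudogene, and the rule left out a symbol that the pattern matches. Members were chosen with earlier results of these data known. The pattern does not match every subunit: COX4I1 and COX4I2, for example, fall outside it and are given with the other genes of the pathway. This gave 24 genes on 25 features out of 14812 named genes: 7 of complex III, 14 of complex IV and 3 of complex V. For complexes I and II the rule found 0 genes, so their subunits are not analysed here, and neither are the subunits encoded in mitochondrial DNA. The first line stably expressed EGFP-ARHGAP4, a fusion of EGFP with a GTPase-activating protein, and the other stably expressed the EGFP vector. Both lines carried the EGFP sequence. There was 1 array per line, so differences could not be set against variation between cultures. They are described without p-values, and without SDs or standard errors between cultures. The labels do not say whether a line was 1 clone or a pool, nor which promoter drove the construct.

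The respiratory chain passes electrons from NADH and succinate through coenzyme Q, complex III and cytochrome c to oxygen at complex IV, and the proton gradient that this builds drives ATP synthesis at complex V. Each of complexes III, IV and V joins subunits encoded in mitochondrial DNA with others encoded in the nucleus, made in the cytosol and imported. Several nuclear subunits of complex IV exist as alternative isoforms, a form found in most tissues and a form largely restricted to muscle or testis. Dedicated assembly factors, which are not part of the finished enzyme, insert cofactors and join the subunits.

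Values are deposited log2 expression per gene, and every difference is EGFP-ARHGAP4 minus EGFP vector on that scale. The median of all gene-level values, 4.02, served as a level filter: 18 of the 24 genes reached it in at least 1 array, and 6 stayed below it in both. Log2 levels of different genes come from different probes and are not set against each other. The fused gene itself, ARHGAP4, had a log2 level of 6.68 in EGFP-ARHGAP4 cells, against 4.49 in EGFP vector cells, in the direction of the labels. Of 12 mammary epithelial markers 6 were measured (EPCAM, KRT5, KRT7, KRT8, KRT14 and KRT18), all past the filter, with log2 levels of 5.43 to 8.34 in EGFP-ARHGAP4 cells and 5.06 to 9.21 in EGFP vector cells. Of these, KRT14, a keratin of basal cells, stood at 6.96 in EGFP-ARHGAP4 cells and 9.21 in EGFP vector cells, 4.76-fold lower. EPCAM, an epithelial adhesion gene, stood at 7.79 in EGFP-ARHGAP4 cells and 6.58 in EGFP vector cells, 2.30-fold higher. Both markers thus differed by more than any gene of the chain. The measured fibroblast markers (3 of 8) and adipocyte markers (3 of 5) lay below the filter in both arrays, and so did 3 of the 4 measured endothelial markers, with CLDN5 at 4.32 in EGFP-ARHGAP4 cells and 4.31 in EGFP vector cells. Among 4 measured immune markers, CD68 and CD14 were past the filter. CD68 stood at 7.80 in EGFP-ARHGAP4 cells and 7.32 in EGFP vector cells, and CD14 at 5.48 in EGFP-ARHGAP4 cells and 5.84 in EGFP vector cells. The part of other cell types in the differences below was not tested.

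Respiratory chain genes stood slightly higher in EGFP-ARHGAP4 cells than in EGFP vector cells, by amounts that were mostly small. Of the 24 genes, 19 had a difference above 0, against 41.6% of all named genes and 36.7% of those past the filter, and 5 had a difference below 0, against 52.9%. Their median difference was 0.08, or 1.06-fold, while that of all named genes was -0.03 and that of the 7685 named genes past the level filter was -0.10. Of the 18 genes of the chain past the filter, 4 had a difference below 0, against 61.4% of named genes past it, and their median was 0.05. A difference of at least 0.5 was found in 1 gene, ATP5MK, where 4.25% of all named genes, and 5.15% of those past the filter, were higher by that much. No gene of the chain was lower by 0.5 (0 of 24), where 6.47% of named genes, and 9.81% of those past the filter, were. No gene of the chain reached 1 in either direction, as 0.581% of named genes did upward and 0.486% downward. For so few genes, the counts at 0.5 and at 1 are near those shares. The features of a gene measured several times on these arrays differed from each other with a pooled SD of 0.21 in the difference, over 336 genes past the filter. Of the 24 differences, 18 were smaller than that SD in either direction. It is a spread between features of the same arrays and not between cultures, and 23 of the 24 genes had 1 feature. The plot of levels by gene shows how close the arrays lay for most of the chain.

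**Figure D1:**
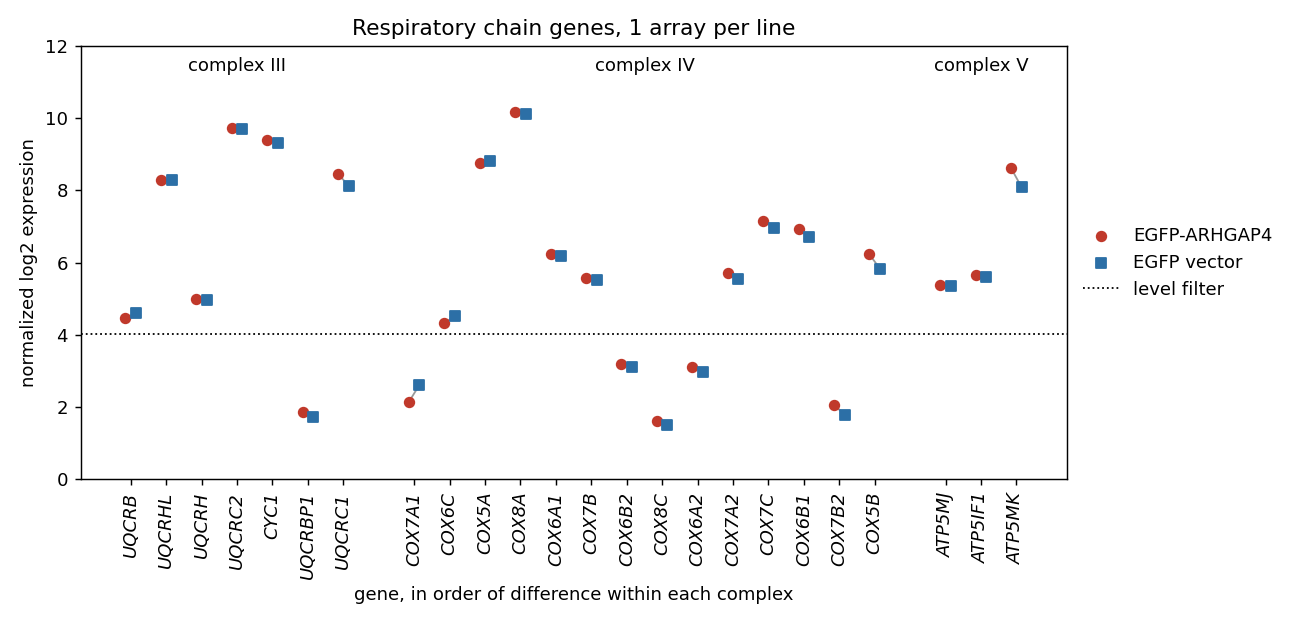
Normalized log2 expression (vertical axis) of the 24 respiratory chain genes in the EGFP-ARHGAP4 array (red circles) and the EGFP vector array (blue squares), by complex and in order of difference, with the level filter of 4.02 as a dotted line. The paired points nearly coincide for most genes, ATP5MK, COX5B and UQCRC1 stand higher in EGFP-ARHGAP4 cells, and COX7A1 and the other 5 genes under the line lie below the filter in both arrays.

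The promoters of the 3 genes past the filter with the highest differences, ATP5MK, COX5B and UQCRC1, are shown because promoters of respiratory genes are known for binding sites of NRF1, of ETS family factors such as GABPA, and of YY1. The sequences are those of RefSeq (GRCh38.p14), each from 250 bases before to 50 bases after the annotated start of the gene, 5′ to 3′ on the gene's strand. ATP5MK lies at chr10:103396426-103396725 (minus strand), COX5B at chr2:97645812-97646111 (plus strand) and UQCRC1 at chr3:48609597-48609896 (minus strand). Capitals mark matches, on either strand, to the NRF1 letters CGCANGCGC, the ETS letters CCGGAAG and the YY1 letters AAGATGGC.
ATP5MK: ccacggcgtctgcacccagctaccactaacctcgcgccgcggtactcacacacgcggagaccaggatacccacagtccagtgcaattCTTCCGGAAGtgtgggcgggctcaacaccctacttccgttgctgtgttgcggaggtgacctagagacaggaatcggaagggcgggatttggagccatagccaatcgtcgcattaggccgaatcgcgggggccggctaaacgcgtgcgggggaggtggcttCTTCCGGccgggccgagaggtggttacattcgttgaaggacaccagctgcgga
COX5B: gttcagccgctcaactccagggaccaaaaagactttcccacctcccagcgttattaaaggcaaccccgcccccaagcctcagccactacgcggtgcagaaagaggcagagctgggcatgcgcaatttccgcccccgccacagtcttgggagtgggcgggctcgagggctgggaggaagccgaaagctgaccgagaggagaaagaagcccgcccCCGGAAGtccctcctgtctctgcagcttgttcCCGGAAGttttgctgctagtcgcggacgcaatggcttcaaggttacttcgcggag
UQCRC1: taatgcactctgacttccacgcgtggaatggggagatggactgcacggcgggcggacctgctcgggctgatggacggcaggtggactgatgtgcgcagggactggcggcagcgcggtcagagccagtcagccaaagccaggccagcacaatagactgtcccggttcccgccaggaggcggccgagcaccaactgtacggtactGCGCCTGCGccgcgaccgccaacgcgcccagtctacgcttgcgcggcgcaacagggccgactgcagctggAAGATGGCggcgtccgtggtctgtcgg
The ATP5MK window held 3 ETS matches, of which a pair on opposite strands overlapped, 163 and 160 bases before the start, and the other lay 3 bases before it. The COX5B window held ETS matches 37 and 5 bases before the start. The UQCRC1 window held an NRF1 match 47 bases before the start and a YY1 match 23 bases after it. Of the 24 genes, 18 had a promoter window in the table used here. Among them 6 held the ETS letters (ATP5MK, COX5B, COX6A1, COX6B1, COX8A and UQCRH), which is 33.3%, against 17.1% of the 10736 array genes with a window and 10.3% of all 35116 windows. The NRF1 letters were found in 4 (UQCRC1, ATP5MJ, COX6A1 and COX8C), or 22.2%, against 12.8% of the array genes and 7.47% of all windows. The YY1 letters were found in 1, UQCRC1, or 5.56%, against 4.86% of the array genes and 2.89% of all windows. A gene was counted if any of its windows matched, whereas the shares of all windows count each window singly. The median difference was 0.14 for the 6 genes with the ETS letters and 0.10 for the 12 without. It was 0.08 for the 4 genes with the NRF1 letters and 0.12 for the 14 without, and UQCRC1, the 1 gene with the YY1 letters, was at 0.34 against a median of 0.10 for the 17 without. These medians are descriptions of few genes, with no test. A match to letters is a description of the window and not a bound site.

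In complex III, which passes electrons from coenzyme Q to cytochrome c, 5 of 7 genes had a difference above 0, and the median was 0.02. That median was 0.09 after quantile normalization, 0.13 after removal of the level trend, and 0.09 without UQCRH and UQCRHL. UQCRC1, a core protein on the matrix side of the complex, had a log2 level of 8.46 in EGFP-ARHGAP4 cells, against 8.12 in EGFP vector cells. That difference of 0.34, or 1.26-fold, was higher than those of 90.0% of named genes. Its partner core protein gene UQCRC2 stood at 9.72 in EGFP-ARHGAP4 cells and 9.70 in EGFP vector cells, a difference of 0.02, so the paired core genes did not differ by the same amount. CYC1, which encodes cytochrome c1, the haem protein that hands electrons on to cytochrome c, was at 9.39 in EGFP-ARHGAP4 cells and 9.30 in EGFP vector cells. UQCRB, a small subunit near the site of coenzyme Q, was at 4.47 in EGFP-ARHGAP4 cells and 4.60 in EGFP vector cells, the lowest difference of the complex at -0.13. UQCRH, the hinge protein that contacts cytochrome c1, stood at 4.98 in EGFP-ARHGAP4 cells and 4.97 in EGFP vector cells. The hinge-like gene UQCRHL, a close copy of UQCRH whose feature can share its RNA, stood at 8.294 in EGFP-ARHGAP4 cells and 8.298 in EGFP vector cells. Its difference of -0.003 was above 0 after quantile normalization, centring or removal of the level trend. UQCRBP1, which the gene table lists as a transcribed pseudogene, was below the filter at 1.86 in EGFP-ARHGAP4 cells and 1.71 in EGFP vector cells. UQCRC1 was thus the 1 gene of complex III that differed by more than the pooled SD between features.

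In complex IV, the cytochrome c oxidase, 11 of 14 genes had a difference above 0, and the median was 0.10, or 1.08-fold. That median was 0.16 after removal of the level trend and 0.06 over the genes past the level filter. COX5B, a zinc-binding subunit on the matrix side, stood at 6.23 in EGFP-ARHGAP4 cells, against 5.83 in EGFP vector cells. Its difference of 0.40, or 1.32-fold, was the highest of the complex and just under the threshold of 0.5. COX5A, the other matrix-side subunit, stood at 8.75 in EGFP-ARHGAP4 cells and 8.80 in EGFP vector cells. Its difference of -0.05 was above 0 after quantile normalization, at 0.05, and 0.08 once the level trend was removed. COX6B1, on the intermembrane side, was at 6.92 in EGFP-ARHGAP4 cells and 6.70 in EGFP vector cells, a difference of 0.23. The small membrane subunit genes COX7C and COX7A2 had differences of 0.20 and 0.16. COX7C was at 7.16 in EGFP-ARHGAP4 cells and 6.97 in EGFP vector cells, and COX7A2 at 5.71 in EGFP-ARHGAP4 cells and 5.55 in EGFP vector cells. COX7B, also a small membrane subunit, was at 5.57 in EGFP-ARHGAP4 cells and 5.50 in EGFP vector cells, and COX8A, the isoform of most tissues, was at 10.16 in EGFP-ARHGAP4 cells and 10.11 in EGFP vector cells. These last differences, 0.06 and 0.05, were smaller than the pooled SD between features, and so were those of COX5A, COX7C and COX7A2. COX6C, a small membrane subunit, went the other way, at 4.32 in EGFP-ARHGAP4 cells and 4.52 in EGFP vector cells. Its difference of -0.20 was also smaller than that SD.

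COX6A1, the non-muscle isoform of its subunit, was the 1 gene of the chain with several features, and they disagreed. A feature with high signal stood at 10.95 in EGFP-ARHGAP4 cells and 10.67 in EGFP vector cells, a difference of 0.28. The other stood at 1.51 in EGFP-ARHGAP4 cells and 1.68 in EGFP vector cells, a difference of -0.17. The mean of both gave 0.05, which puts COX6A1 among the 18 differences smaller than the pooled SD of 0.21. The feature with high signal alone exceeded that SD. The level band of COX6A1, used below, also rests on the mean, which is far from the level of either feature. The sources used here do not say which sequence each feature covers.

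The complex IV isoforms known from muscle or testis lay below the level filter in both arrays. COX6A2 and COX7A1 are the isoforms of heart and skeletal muscle, and COX6B2, COX7B2 and COX8C are known from testis. COX7A1 was at 2.14 in EGFP-ARHGAP4 cells and 2.61 in EGFP vector cells. Its difference of -0.47, or 1.39-fold lower, was the lowest of the whole chain, opposite in sign to that of its counterpart COX7A2 and just under the threshold. COX7B2 was at 2.07 in EGFP-ARHGAP4 cells and 1.78 in EGFP vector cells, a difference of 0.29. COX6A2, COX8C and COX6B2 had differences of 0.13, 0.11 and 0.10. Signals this low cannot be told apart from background, since no detection calls were used, and these 5 differences carry little weight as measurements of RNA. The 1 muscle marker measured of 6, MYOG, stood at 4.40 in EGFP-ARHGAP4 cells and 4.35 in EGFP vector cells.

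In complex V, the ATP synthase, 3 genes were measured and all had a difference above 0, with a median of 0.06, or 0.15 after quantile normalization and after removal of the level trend. ATP5MK, a small membrane subunit also known as DAPIT, stood at 8.61 in EGFP-ARHGAP4 cells, against 8.08 in EGFP vector cells. The difference of 0.53, or 1.45-fold, was the highest of the 24 and above those of 96.4% of named genes. ATP5MJ, another small membrane subunit, was at 5.38 in EGFP-ARHGAP4 cells and 5.34 in EGFP vector cells. ATP5IF1, which inhibits the enzyme when it would run in reverse and hydrolyse ATP, was at 5.66 in EGFP-ARHGAP4 cells and 5.60 in EGFP vector cells. The differences of ATP5MJ and ATP5IF1, 0.04 and 0.06, were far below that of ATP5MK, and the catalytic subunits of the enzyme are not analysed here.

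ATP5MK lies on the long arm of chromosome 10, and most of its near neighbours were higher in EGFP-ARHGAP4 cells. Among the 20 nearest named genes past the filter, 10 on each side, 16 had a difference above 0 and the median difference was 0.31. The sideroflexin gene SFXN2, of a family of mitochondrial transporters, was at 0.59, TRIM8 at 0.53, and PDCD11, the next gene along, at 0.51. ATP5MK itself, at 0.53, was above that median by 0.22, which is below the threshold of 0.5, and 2 of the 20 neighbours were at least as high. For the other 23 genes the median difference of the neighbours lay between -0.28 and 0.34, with a median of -0.02. The 24 genes are spread over 15 chromosomes, and 17 of them were above the median of their own neighbours. The part of position in the difference of ATP5MK was not tested.

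**Figure D2:**
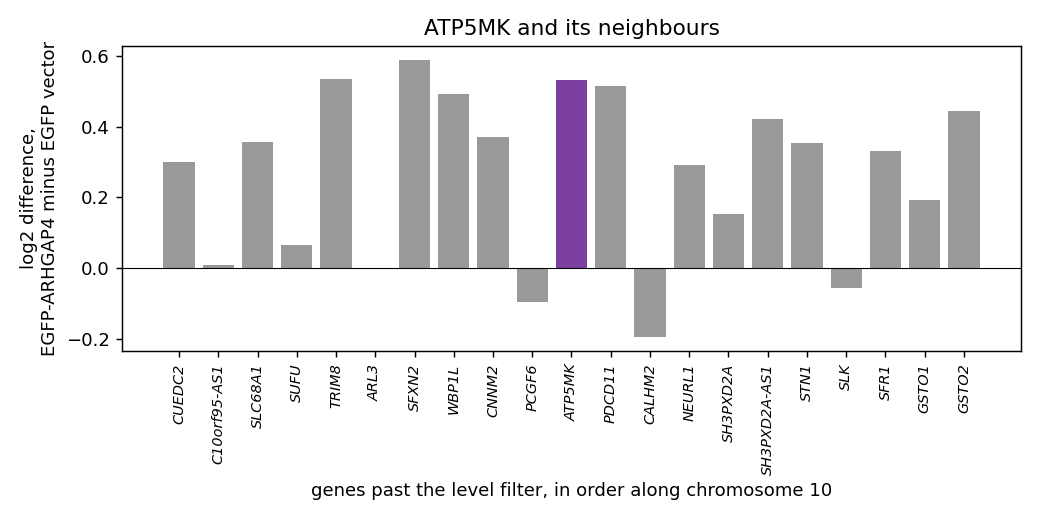
Log2 difference, EGFP-ARHGAP4 minus EGFP vector (vertical axis), of ATP5MK (purple) and of the 10 nearest genes past the level filter on each side (grey), in order along chromosome 10. Of the 20 neighbours, 16 stand above 0, and SFXN2 and TRIM8 are at least as high as ATP5MK.

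Differences on these arrays varied with level, so the chain was also set beside genes of like level. Among all named genes the median difference was 0.00 for mean levels below 4, -0.04 from 4 to 5, -0.11 from 6 to 7 and -0.16 from 7 to 8. Of the 24 respiratory chain genes, 21 lay above the median of the genes in their own level band, where 48.6% of all named genes did. The exceptions were UQCRB, COX6C and COX7A1. All 15 genes of the chain with a mean level of 5 or more lay above their band median, COX5A and UQCRHL included. That bound of 5 is a band edge, taken after seeing the data, and is higher than the level filter of 4.02. The exceptions UQCRB and COX6C were past the filter but below 5, so the bound leaves them out. In the band from 8 to 9 the 4 genes of the chain had a median of 0.17, against -0.14 over the 482 named genes of the band. The chain lay below its band in 2 of the 10 bands: from 4 to 5, where its 3 genes had a median of -0.13 against -0.04, and from 2 to 3, where COX7A1 alone stood at -0.47 against 0.00. After removal of the level trend the median of the 24 was 0.15, and ATP5MK and COX5B were at 0.66 and 0.51. Under that setting 21 of the 24 genes were above 0, against 48.4% of all named genes and 49.7% of those past the filter, and after quantile normalization 21 of 24 were, against 48.7% and 47.7%.

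**Figure D3:**
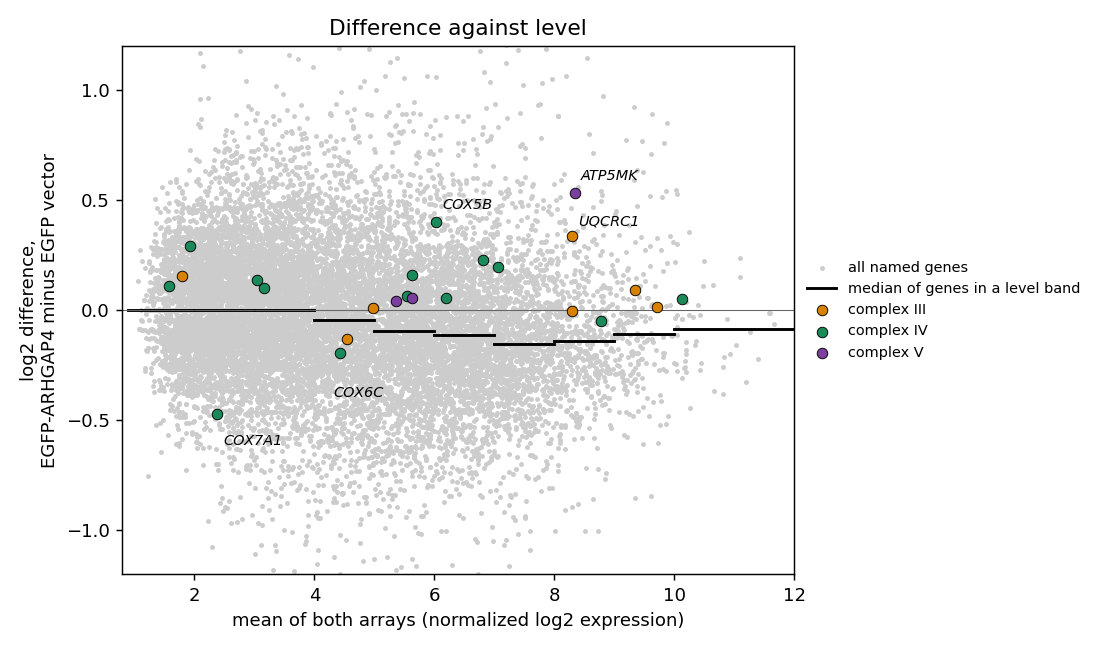
Log2 difference, EGFP-ARHGAP4 minus EGFP vector (vertical axis), against the mean log2 expression of both arrays (horizontal axis) for all named genes (grey) and the genes of complexes III (orange), IV (green) and V (purple). Black bars give the median of all named genes in each level band, 21 of the 24 coloured points lie above their bar, and 85 named genes fall outside the plotted range.

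The genes whose products assemble the chain without being part of it were mostly lower in EGFP-ARHGAP4 cells, about as much as other genes past the filter. Of 56 listed assembly factors 44 were measured. Of these, 30 had a difference below 0, against 52.9% of all named genes and 61.4% of those past the filter. Their median was -0.13, close to the -0.10 of named genes past the filter. It was -0.06 after quantile normalization, with 27 of 44 below 0, and -0.04 after removal of the level trend, with 25 of 44 below 0. As deposited, 19 of 44 lay above the median of their level band. The 11 measured assembly factors of complex I had the lowest median, -0.35 (-0.25 after quantile normalization and after removal of the level trend), with 8 of 11 below 0. They held the 2 of 44 assembly factors lower by at least 0.5, where 6.47% of all named genes and 9.81% of those past the filter were lower by that much. NUBPL, which delivers iron-sulphur clusters to complex I, stood at 4.69 in EGFP-ARHGAP4 cells and 5.51 in EGFP vector cells, 1.77-fold lower. TMEM126B, of the assembly complex that builds the membrane arm, stood at 5.75 in EGFP-ARHGAP4 cells and 6.51 in EGFP vector cells, 1.69-fold lower. ECSIT and COA1, known from the same assembly complex, had differences of -0.45 and -0.44. TMEM186, of the same list, was at -0.15. The 3 of the 11 above 0 were TIMMDC1 at 0.07, NDUFAF8 at 0.18 and DMAC1, below the filter, at 0.18. Whether the subunits of complex I differed in the same way is not analysed here.

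Among the 4 complex II assembly factors, with a median of -0.23, SDHAF4, which binds the flavin-carrying subunit, had a difference of -0.46, SDHAF3 -0.28, SDHAF2 -0.18 and SDHAF1 0.08. The 5 measured factors of complex III had a median of -0.05, which was above 0 after quantile normalization or removal of the level trend. UQCC1, needed for cytochrome b, had a difference of 0.31 and its partner UQCC3 one of -0.33. UQCC2, of the same group, had -0.05 as deposited and a value above 0 under those settings, and LYRM7, which helps place the Rieske protein, had -0.13. The 20 measured factors of complex IV had a median of -0.12, or -0.002 after removal of the level trend, with 13 below 0. COA6, a copper-delivery factor, had a difference of -0.49, CMC2 -0.47, COA3 -0.33 and the translational activator TACO1 -0.25. Another 6 were above 0, among them SCO2 and COX20 at 0.14 each and COA5, below the filter in both arrays, at 0.499. The structural genes of complex IV and its assembly factors thus had medians of opposite sign as deposited, a contrast that has no replicate check. The 4 measured factors of complex V had a median of -0.03, above 0 after quantile normalization, centring or removal of the level trend, with TMEM70 at -0.28, ATPAF2 at -0.17, TMEM242 at 0.12 and ATPAF1 at 0.11.

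Of 7 listed subunits, isoforms and carriers whose symbols the rule does not match, 4 were measured, with a median of 0.00. COX4I1, the isoform of complex IV subunit 4 in most tissues, was at 9.73 in EGFP-ARHGAP4 cells and 9.62 in EGFP vector cells. ETFDH, which feeds electrons from fatty acid oxidation into coenzyme Q, was at 5.83 in EGFP-ARHGAP4 cells and 5.74 in EGFP vector cells. Their differences were 0.11 and 0.09. The alternative isoform COX4I2 and the related gene COX7A2L, both below the filter in both arrays, went the other way, at -0.18 and -0.09. All 4 differences were smaller than the pooled SD between features. Of 13 coenzyme Q synthesis genes 6 were measured, with a median of 0.11. COQ8A, an atypical kinase of the pathway, was at 6.42 in EGFP-ARHGAP4 cells and 5.86 in EGFP vector cells, a difference of 0.56, while COQ10B, a coenzyme Q binding protein, was at 5.92 in EGFP-ARHGAP4 cells and 6.46 in EGFP vector cells, a difference of -0.54. COQ9 and COQ8B had differences of 0.29 and 0.12.

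The tricarboxylic acid cycle supplies the chain with NADH and succinate. Its list, which also held genes of pyruvate dehydrogenase and pyruvate carboxylase, had 11 of 18 genes measured. Of these, 10 had a difference below 0 and the median was -0.13, close to that of named genes past the filter, and 0.004 after removal of the level trend. The pyruvate carboxylase gene PC was at -0.30, the pyruvate dehydrogenase subunit gene DLAT at -0.29 and IDH3B at -0.20, while OGDH was at 0.20. None of the 11 reached 0.5 in either direction (0 higher, against 4.25% of all named genes, and 0 lower, against 6.47%), which for so few genes is near those shares. Of 19 regulators of mitochondrial genes and mitochondrial DNA 8 were measured, with a median of -0.08. TWNK, the helicase of mitochondrial DNA, which lies on chromosome 10 as ATP5MK does, was at 7.30 in EGFP-ARHGAP4 cells and 6.64 in EGFP vector cells, a difference of 0.66. The transcription factor genes NRF1 and YY1, whose letters were searched above, had differences of -0.29 and -0.21, and POLRMT, the mitochondrial RNA polymerase, had -0.19. The subunit genes and coenzyme Q genes therefore had medians above 0, and the regulators, tricarboxylic acid cycle and pooled assembly genes medians below 0 as deposited.

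**Figure D4:**
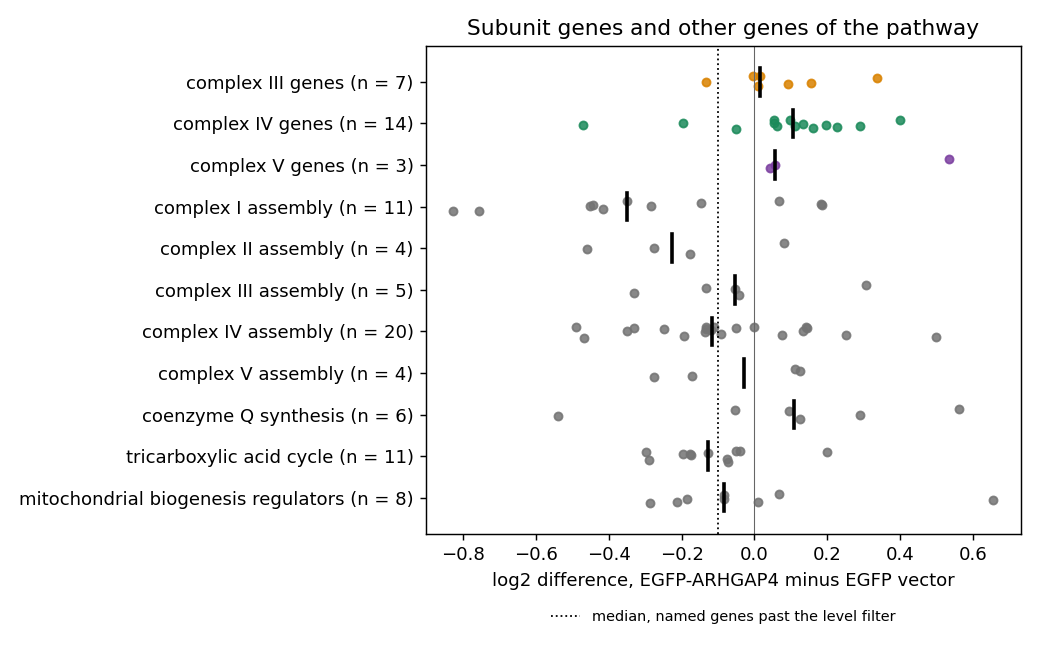
Log2 difference, EGFP-ARHGAP4 minus EGFP vector (horizontal axis), of each measured gene (points) of complexes III, IV and V and of the other lists, with the median of each list as a black bar and that of named genes past the level filter, -0.10, as a dotted line. The bars of complexes III, IV and V lie at 0.02, 0.10 and 0.06, and the bar of the complex I assembly factors lies at -0.35.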

How the data were processed

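RNA of 2 MCF-10A lines was extracted, amplified and labelled with GeneChip whole-transcript kits and hybridised to Affymetrix arrays, per the labels' protocols. The deposited table gives a normalized log2 value per feature and array for 44629 features. The log base was read from the highest value, 12.8, above the natural log of a 16-bit reading, 11.1. For summarisation, normalization and build, the method is not stated in the sources used here. Both arrays had a median of 2.88 over features. A platform annotation of 2020 named 15835 features, all matched to GRCh38.p14 RefSeq genes by Entrez identifier, and the log2 values of a gene's features were averaged.

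With 1 array per group no test was possible: differences were described beside those of all 14812 named genes, and the number of arrays limits precision. The text names every gene of the chain, and up to 4 genes past the level filter with the largest absolute difference per other list. It also names markers, and further genes of a list where the named ones would show 1 direction only. ATP5MK's neighbours were named after their values were seen. Members and lists were chosen with earlier results of these data known. Alternatives were quantile normalization, centring, loess on level (span 0.3), the highest feature, the level filter, thresholds of 0.25 and 1, and leaving out chromosome 10, close copies or, added after seeing the data, the pseudogene, or subtracting the median of 10 neighbours on each side. Level bands were also added after seeing the data. Of the calculations, only loess and quantile normalization were tested on simulated data. All used statsmodels 0.14.6, matplotlib 3.10.9, numpy 2.4.6 and pandas 2.3.3 under Python 3.11.15.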

Additional observations from a re-analysis of the deposited data

How the results depend on the processing

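The median difference of the 24 respiratory chain genes stayed above 0 under all 9 alternatives run on it, between 0.05 and 0.15. The number of genes higher by at least 0.5 was 2 after loess (ATP5MK and COX5B), 0 without chromosome 10 or at a threshold of 1, and 4 at 0.25, against 1 as deposited. It was also 1 after subtracting the median of neighbouring genes, but a different gene: ATP5MK was then at 0.22 and lost its call, and COX7B2, below the level filter, was at 0.54. The number lower was 1 at a threshold of 0.25 and 1 after subtracting the median of neighbouring genes, in each case COX7A1, against 0. The number with a difference below 0 was 3 after quantile normalization and 3 after loess, but 7 after subtracting the median of neighbouring genes, against 5. Single genes were checked under 4 settings only: quantile normalization, centring, loess and, for genes with several features, the highest feature. This was done for 59 genes: those of the chain, the up to 4 per other list, and ARHGAP4. Of these, 3 changed sign: COX5A to 0.0512 after quantile normalization and 0.0765 after loess, UQCRHL to 0.0859, 0.0293 (centring) and 0.1281, and UQCC2 to 0.0675 and 0.0772. Subtracting the median of neighbouring genes was not among these settings. Within the chain it changed the sign of CYC1 (to -0.14), COX6B2 (to -0.24), ATP5IF1 (to -0.02) and UQCRHL (to 0.003). COX6A1 was 0.28 with its highest feature. Quantile normalization and loess moved the median of genes past the filter by 0.08 and 0.10. Medians for complexes I and II could not be computed, since the rule found 0 genes there. No paired analysis was possible because each group holds 1 array.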
